A study of Homo sapiens with 6 samples.

Results

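miR-221-3p and miR-222-3p are 2 mature microRNAs processed from neighbouring hairpins, and they were followed here in Huh7, a cell line established from a human hepatocellular carcinoma. Their probes were found by the miRBase accessions MIMAT0000278 (miR-221-3p) and MIMAT0000279 (miR-222-3p), which matched 2 of the 1212 rows of the deposited value table. The tested samples were 3 Huh7 samples given 10 mM metformin, a biguanide used against diabetes, for 72 h. The controls were 3 samples of the same cells kept for 72 h without the drug. Both groups are the same unmodified line, grown in medium with fetal bovine serum. Whether replicates were separate cultures is not stated in the labels, so the p-values below reflect the spread among these arrays alone, and that spread could be technical. RNA was labelled with the dye Hy5 and read on a 1-colour array, with 1 array per sample. The series asked which microRNAs differ between metformin-treated and untreated liver cancer cells.

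MicroRNAs guide Argonaute proteins to messenger RNAs that pair with the seed near their 5′ end, which lowers the output of those messages. miR-221 and miR-222 are known for repressing CDKN1B, which encodes the cyclin-dependent kinase inhibitor p27. They are also known for repressing CDKN1C, which encodes the related inhibitor p57, and both microRNAs are frequently raised in hepatocellular carcinoma. Neither inhibitor was measured on these arrays.

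The mature sequences are shown because the common seed is what makes these microRNAs a pair. Both members were matched by name to RefSeq, build GRCh38.p14, and the seed, bases 2 to 8 from the 5′ end, is in capitals.
miR-221-3p: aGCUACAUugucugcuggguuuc
miR-222-3p: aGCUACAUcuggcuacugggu

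The first 8 bases of the pair were identical, and after them the longest common run was 6 bases, cugggu. miR-221-3p is 23 bases long with 47.8% G or C, whereas miR-222-3p is 21 bases long with 52.4%. It took 6 single-base edits to turn one into the other. Among 2368 other human mature microRNA entries of the RefSeq table, 0 carried the same 7-base seed. The nearest other entry was 8 edits from miR-221-3p. For miR-222-3p it was 6 edits away, the same number as between the pair. The probe sequences of this array were not used here, so how far each probe also captured the other member or another microRNA was not tested.

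Both microRNAs lie on the minus strand of the X chromosome. The mature miR-221-3p occupies chrX:45746180-45746202 and miR-222-3p occupies chrX:45747036-45747056. Their hairpin genes, MIR221 (chrX:45746157-45746266) and MIR222 (chrX:45747015-45747124), are 110 bases each and stand 748 bases apart. Both fall inside MIR222HG, a long non-coding RNA gene annotated at chrX:45745214-45770267. The table gives gene spans only, so exon and intron positions within MIR222HG are not given here. The hairpins are printed to show where in each precursor the measured strand sits, with that strand in capitals. In both it is the arm nearer the 3′ end, at bases 65 to 87 of MIR221 and 69 to 89 of MIR222.
MIR221 hairpin: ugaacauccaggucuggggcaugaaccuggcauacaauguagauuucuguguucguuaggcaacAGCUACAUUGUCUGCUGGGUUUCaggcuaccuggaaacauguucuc
MIR222 hairpin: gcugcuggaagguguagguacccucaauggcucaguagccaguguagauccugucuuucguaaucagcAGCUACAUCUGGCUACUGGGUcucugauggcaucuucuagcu

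Intensities were deposited on a linear scale in arbitrary units, after processing by the authors, and array medians lay between 22.8 and 24.1. Each array gave a value for 1099 to 1209 probes, and both members had one on all 6 arrays. Without scanner output no probe could be set against its own background. Marker microRNAs of liver, stroma, endothelium and blood could not be looked up, because the files and reference tables used here pair no accession with a name.

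Neither microRNA passed the test for a difference between metformin-treated and untreated Huh7 cells. Of the 2 members, 0 were called by limma at an adjusted p under 0.05, against 0% of the 1038 probes tested. The groups overlapped for both members. They were fully separated for 7.61% of all tested probes, with metformin higher for 4.43% and lower for 3.18%. Full separation of 3 against 3 arrays has a two-sided exact permutation p of 0.1, so some probes separate without any difference.

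miR-221-3p had intensities of 179.3, 179.2 and 210.5 in metformin-treated cells, against 167.3, 162.2 and 209.8 in control cells, in the order of replicates 1 to 3. Replicate 3 of each group stood above the other two of its group, and the values of these 2 arrays were almost equal. The means were 189.7 ± 18.0 with metformin and 179.8 ± 26.1 in control (SD, n = 3 each). Of the 9 pairings of a metformin array with a control array, 7 had the higher value on the metformin array. The log2 difference, metformin minus control, was 0.08 (SE 0.23; limma adjusted p = 0.991), or 1.06-fold. On the 6 values alone the two-sided exact permutation p was 0.5, where 3 against 3 arrays cannot give less than 0.1. The direction was not stable, since the difference was -0.012 after quantile normalization and -0.014 when each array was centred on its 260 brightest tested probes.

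miR-222-3p had intensities of 125.6, 144.5 and 156.5 in metformin-treated cells, against 91.5, 127.7 and 150.0 in control cells. Control replicate 1 was the lowest of the 6 arrays, and the metformin values, 125.6 to 156.5, nearly matched the 127.7 to 150.0 of the other 2 control arrays. The means were 142.2 ± 15.6 with metformin and 123.1 ± 29.5 in control (SD, n = 3 each), and 6 of the 9 pairings were higher on the metformin array. The log2 difference was 0.23 (SE 0.26; limma adjusted p = 0.991), or 1.17-fold, with a two-sided exact permutation p of 0.5. Without control replicate 1 it was 0.033, and without control replicate 3 it was 0.39.

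**Figure D1:**
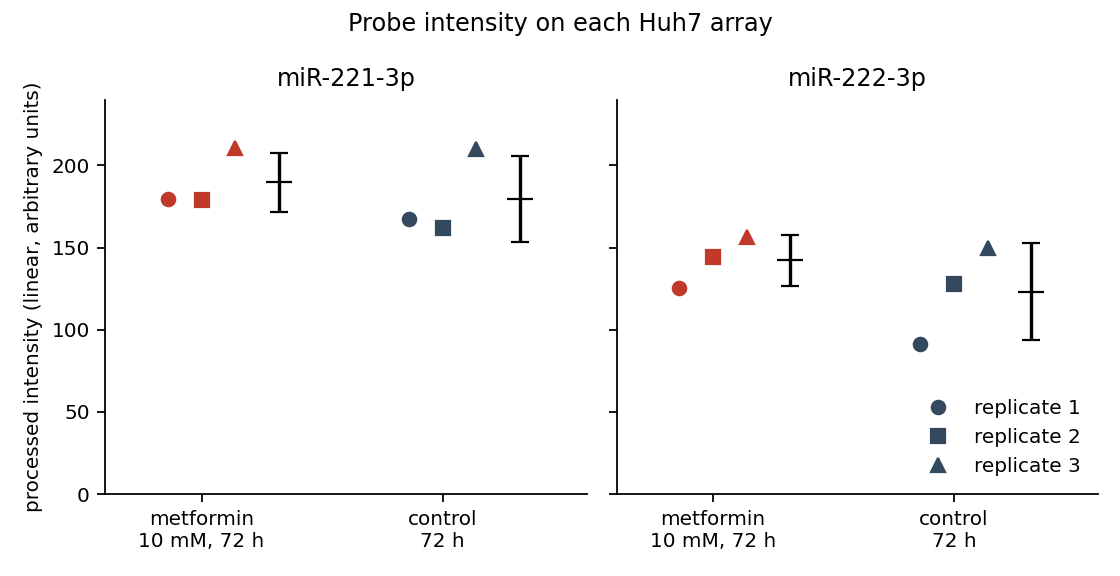
Processed linear intensity (arbitrary units, axis from 0) of the miR-221-3p and miR-222-3p probes on each Huh7 array, metformin left of control, with symbols for the replicate number and a bar for the mean ± SD of 3 arrays. The groups overlap for both probes, and the lowest miR-222-3p value, 91.5, is control replicate 1.

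The arrays bounded the size of a change in signal for this pair. The 95% interval of the miR-221-3p log2 difference ran from -0.44 to 0.61, which is 0.736-fold to 1.52-fold. For miR-222-3p it ran from -0.37 to 0.84, or 0.771-fold to 1.79-fold. Both intervals, unadjusted for multiple probes, left out a 2-fold change of intensity in either direction. Without metformin replicate 1 or without control replicate 3 the miR-222-3p interval reached 1.03 and 1.06 on the log2 scale, past a 2-fold increase. The bound held when any of the other 4 was left out, but narrowly without control replicate 2, where the interval reached 0.992. Each of these fits also has fewer arrays, so they do not show which arrays the bound rests on. Changes inside these intervals, upward or downward, could not be told from no change with 3 arrays per group. Because the background correction is not known, these bounds are on intensity and need not hold for the amount of microRNA.

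**Figure D2:**
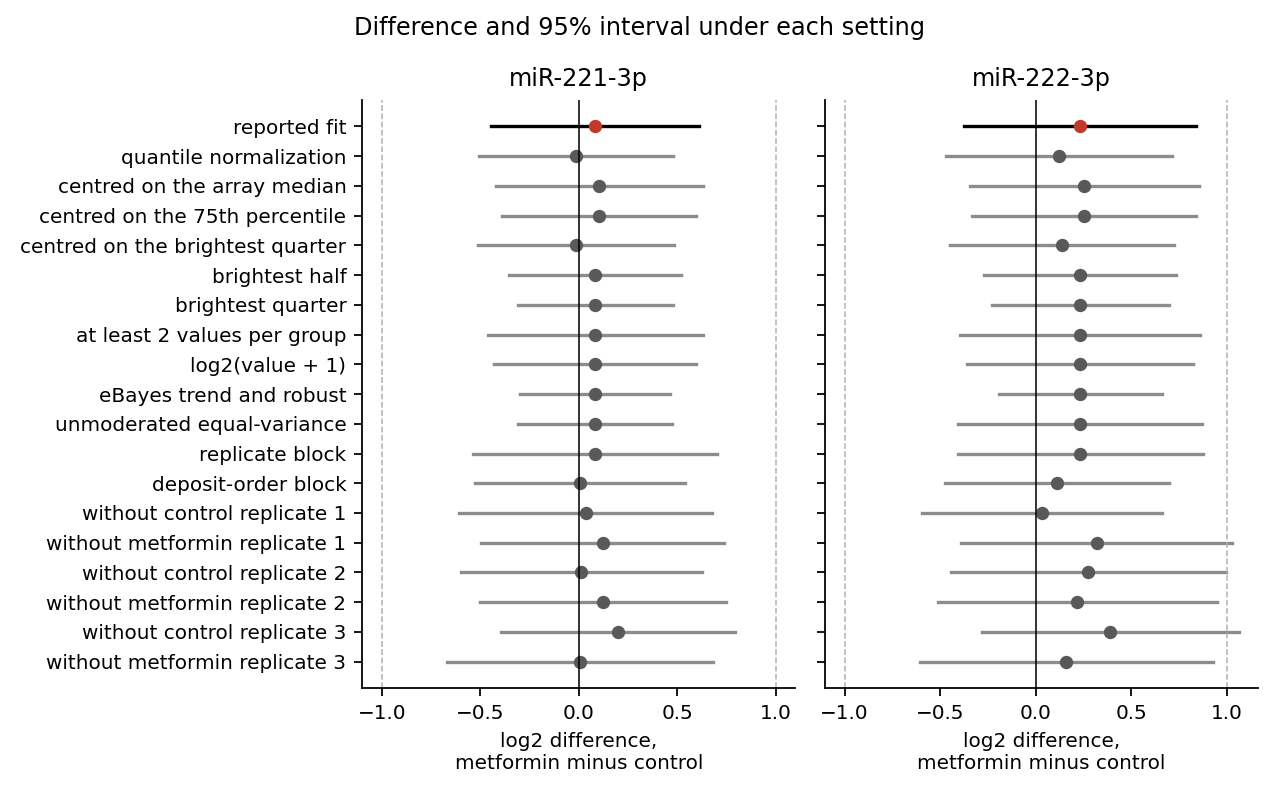
Log2 difference, metformin minus control, for each member with its 95% interval (lines) under the reported fit and 18 alternative settings, with dashed lines at a 2-fold change. Every interval includes 0, and the miR-222-3p interval reaches past a 2-fold increase when metformin replicate 1 or control replicate 3 is left out.

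The pair was among the brighter probes, with a spread near the typical one for such probes. By mean log2 intensity miR-221-3p was 69th and miR-222-3p was 91st of the 1038 tested, a ranking of probe signals that does not rank the microRNAs by abundance. Within groups the log2 values of miR-221-3p had an SD of 0.17 and those of miR-222-3p an SD of 0.28, around the median of 0.24 for the 260 brightest probes.

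The small positive differences of the pair were not unusual for bright probes. The median log2 difference of the 260 brightest probes was 0.10, and 186 of them had the higher mean with metformin. Of those 260, 143 had a larger difference than miR-221-3p and 61 had a larger difference than miR-222-3p. The median over all 1038 probes was 0.03.

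**Figure D3:**
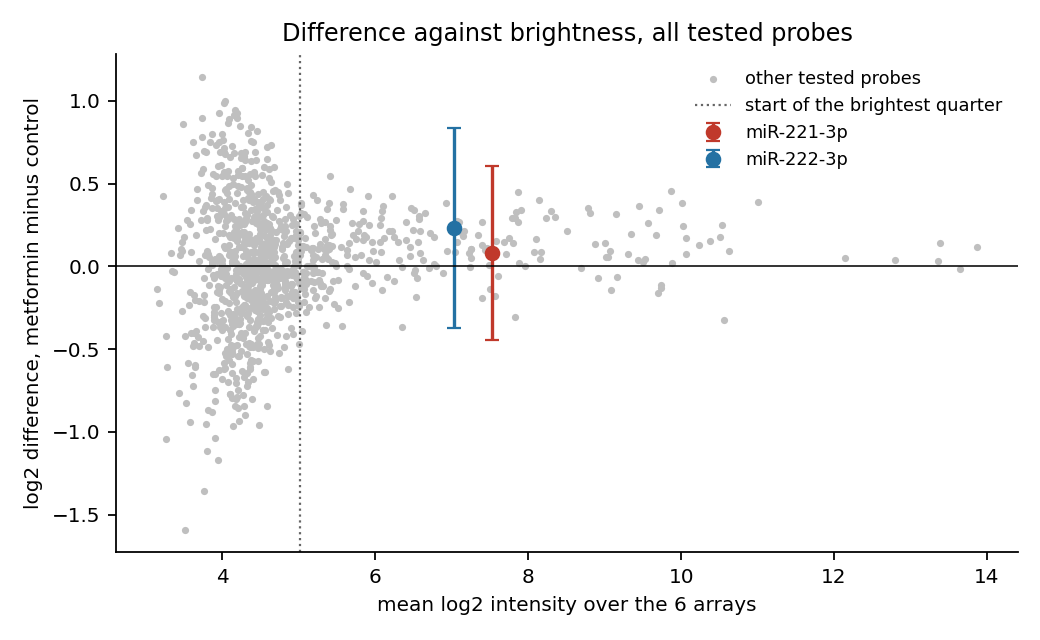
Log2 difference, metformin minus control, against mean log2 intensity over the 6 arrays for all 1038 tested probes, with 95% intervals for miR-221-3p and miR-222-3p and a dotted line where the 260 brightest begin. Both members lie well inside the cloud of bright probes, at 0.08 and 0.23.

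Whether the 2 members moved unequally was tested on the ratio of their probes within each array, in which a scaling factor of the array cancels. This ratio compares probe signals and does not give the relative amount of the 2 microRNAs. The intensity of miR-222-3p over that of miR-221-3p was 0.701, 0.806 and 0.743 in metformin-treated cells, against 0.547, 0.787 and 0.715 in control cells. Control replicate 1 had the lowest ratio, and the other 5 arrays lay between 0.701 and 0.806. On the log2 scale the ratio averaged -0.42 ± 0.10 with metformin and -0.57 ± 0.27 in control (SD, n = 3 each). The difference of 0.15 was within the spread between arrays (two-sided exact permutation p = 0.5). Without control replicate 1 it was -0.0027.

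Across the 6 arrays the signals of the pair tended to be high or low together, without passing the test. Pearson's r of the log2 intensities was 0.72 (two-sided exact permutation p = 0.072) and Spearman's rho was 0.71 (exact p = 0.14). Adjusted over the 6 pairs computed among the 2 members and 2 further probes of the test plan, these p-values were 0.43 and 0.53. The 2 arrays farthest from the median of miR-221-3p were control replicate 3 and metformin replicate 3, and without them r was 0.46. Leaving both out narrows the range of miR-221-3p, which can itself lower r, so this value does not show what the relation rests on. Leaving out 1 of them gave 0.67 (control replicate 3) or 0.62 (metformin replicate 3). The arrays also share their scaling. After centring, r was 0.70 on the array median, 0.716 on the 75th percentile and 0.60 on the 260 brightest probes. Quantile normalization gave 0.62. No label names a batch within which the relation could be repeated.

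**Figure D4:**
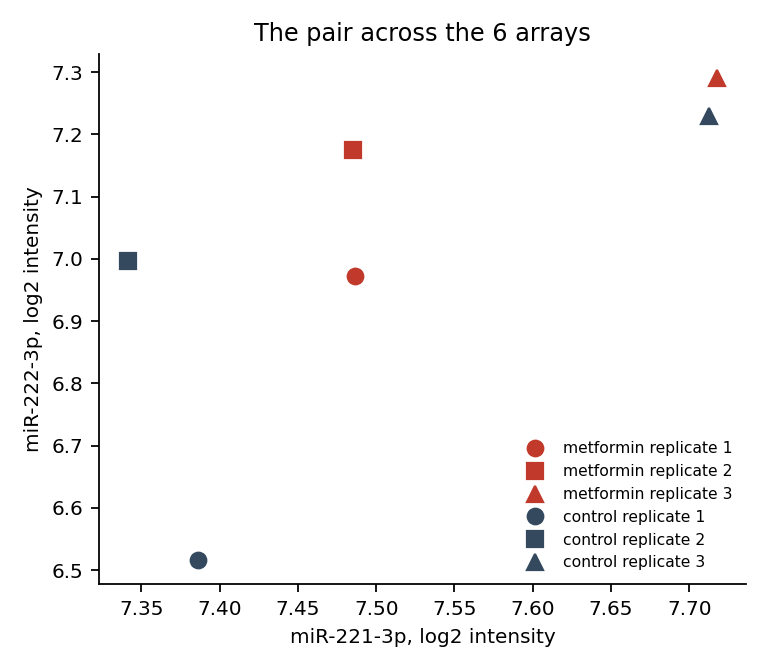
Log2 intensity of miR-222-3p against that of miR-221-3p, 1 point per array, coloured by group with symbols for the replicate number (axes do not start at 0). Replicate 3 of each group is highest for both microRNAs, and control replicate 1 is lowest for miR-222-3p.

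Some other bright probes followed each member more closely than its cluster partner did, but most followed it less closely. When the 259 other probes of the brightest 260 were ordered by Pearson's r with miR-221-3p over the 6 arrays, miR-222-3p came 31st. In the order for miR-222-3p, miR-221-3p also came 31st. With each array centred on its median instead, these places were 42nd and 31st. Without that centring, the median r of those 259 probes was 0.29 with miR-221-3p and 0.26 with miR-222-3p. The closest to miR-221-3p were MIMAT0004697 (r = 0.94), MIMAT0005573 (r = 0.92) and MIMAT0003150 (r = 0.88). The closest to miR-222-3p were MIMAT0000418 (r = 0.94), MIMAT0018443 (r = 0.90) and MIMAT0000459 (r = 0.89). These were picked as the highest of 259 values over 6 points, so they describe these arrays only, and the accessions are not paired with names in the files.

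The signals of the pair were also set in the order of deposit, without a test of that order. In that order the first 3 arrays were control replicate 1, metformin replicate 1 and control replicate 2, and their miR-222-3p intensities, 91.5 to 127.7, were all below the 144.5 to 156.5 of the last 3. For miR-221-3p the first 3 spanned 162.2 to 179.3 and the last 3 spanned 179.2 to 210.5, so these sets overlapped. The share of the 1038 tested probes that separate between these sets was not counted, and the place of the cut is arbitrary. A full separation of 3 against 3 arrays has a two-sided exact permutation p of 0.1. The split of miR-222-3p is therefore not read as a result about this microRNA. No label calls these sets a batch. With the 2 sets of arrays as a block, the log2 difference, metformin minus control, was 0.0055 for miR-221-3p (SE 0.22; limma adjusted p = 0.995) and 0.11 for miR-222-3p (SE 0.24; limma adjusted p = 0.986). The last 3 arrays held 2 metformin arrays and 1 control array, and the part of the deposit order in the reported differences was not tested further.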

How the data were processed

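One deposited table of 1-colour array values was used, with 6 columns mapped to samples by accession. The values are intensities on a linear scale that the authors had processed before they deposited them; this is read from the values, and how they were scanned, background-corrected and scaled is not stated in any source used here. RNA was labelled with Hy5, per the labels' protocols. No pseudocount was added before taking log2. Of 1212 probes, 174 had at least 1 of the 224 empty cells, and the other 1038 were tested with limma 3.58.1 in R 4.3.3 (lmFit and eBayes, two-sided, no covariates), with Benjamini-Hochberg adjustment over all 1038 and a threshold of 0.05. The fit was tested on simulated data with independent errors. The changed probes in those data shifted by more than the pair did, so recovery of such small differences was not tested. Single values, ratios and correlations were compared by exact permutation (scipy 1.17.1). Alternatives were other scalings, filters on dim probes or empty cells, log2(value + 1), other variance models, 2 blocks and leaving out each array. The number of arrays limits the precision.

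The members, lists and tests were chosen with earlier results of these data known. The text names the pair, 2 further accessions from the test plan, and for each member the 3 probes among the 260 brightest with the highest Pearson's r. Lists of liver cancer, cell cycle and cell type microRNAs, written by name, were not analysed here, since no table used here joins names to accessions.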

Additional observations from a re-analysis of the deposited data

How the results depend on the processing

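By limma, 0 probes were called under each of the 18 alternatives, as in the reported fit, where 28 had an unadjusted p under 0.05. That unadjusted count ranged from 1 (of the 260 brightest probes fitted alone) to 50 (of 1038, deposit order as a block). Without any difference, an unadjusted p under 0.05 is expected for a share of 0.05 of the probes tested, and no setting exceeded that share. Neither member passed the threshold in any of its 18 alternatives. The difference of miR-221-3p turned to -0.012 after quantile normalization and to -0.014 when centred on the 260 brightest probes, and leaving out 1 array gave 0.0056 to 0.20. Both scalings remove a shift common to bright probes by construction. The difference of miR-222-3p stayed above 0, from 0.033 to 0.39. Leaving out 1 array gave a within-array difference between the pair of -0.0027 (without control replicate 1) to 0.26, and that array holds the lowest miR-222-3p value. For MIMAT0004569 it gave -0.24 (without metformin replicate 1) to 0.11 (without metformin replicate 2), against -0.11 with all arrays. The correlation of the pair had an exact p of 0.025 when centred on the 75th percentile (r = 0.716). Leaving out 1 array gave r between 0.62 and 0.84, with an exact p of 0.033 without control replicate 2 (r = 0.82). These p-values are not adjusted, and the cause was not tested.

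The replicate numbers were not taken as pairs. Deviations from the group means correlated with r = 0.01, -0.27 and -0.02 for numbers 1, 2 and 3, and 0 of 3 metformin arrays correlated best with the control array of their own number. For both members, each metformin array had a higher value than the control array of its own number, for miR-221-3p by little in replicate 3 (210.5 against 209.8). The replicate block gave 0 calls, 24 probes at an unadjusted p under 0.05, and both members had a limma adjusted p of 0.993.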

Other observations

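The test plan held 2 further probes beside the pair, MIMAT0004568 and MIMAT0004569. They were put there as probes thought to belong to the same 2 hairpins, but neither the deposited files nor the reference tables used here pair these accessions with a name, so this was not checked and they are given by accession only. MIMAT0004568 had intensities of 28.6, 26.4 and 33.6 with metformin, against 23.9, 18.0 and 19.5 in control. All metformin values lay above all control values, as they did for 4.43% of the 1038 probes tested. Its log2 difference was 0.53 (SE 0.23), with a limma adjusted p = 0.991, so it did not pass the threshold, and it ranged from 0.44 to 0.65 over 17 alternatives. Its values lay near the array medians, where probes were dim. MIMAT0004569 had 26.4, 16.3 and 25.1 with metformin, against 25.8, 23.2 and 22.8 in control, a log2 difference of -0.11 (SE 0.26; limma adjusted p = 0.991). Without metformin replicate 2, its lowest array, the difference was 0.11. Neither probe was bright enough to enter the fit of the 260 brightest probes.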
